A study of Mus musculus with 7 samples.

Results

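The 10 genes described here form a core of the NRF2 antioxidant response: Nfe2l2, Hmox1, Nqo1, Gclc, Gclm, Txnrd1, Srxn1, Slc7a11, Gsr and Prdx1. They were listed by name, out of 32285 genes in the count files, and all 10 had enough reads to be among the 17155 genes tested. Their expression was measured by RNA sequencing in cultured utricles, the gravity-sensing organs of the vestibular inner ear, taken from wild-type P2 mice and damaged with the aminoglycoside gentamicin. The study describes its comparison of these groups as made several days after the injury, so P2 is the age at dissection. In 4 libraries the utricles had also received AAV-PHP.eB Fos (Gent+Fos OE), a virus in which the broadly active CMV promoter drives mouse Fos, and 3 libraries came from gentamicin controls (Gent). Both groups thus carried the gentamicin injury, no undamaged group was analysed here, and each library pooled 12 utricles, so differences between libraries are differences between pools. The labels name no virus for the Gent group, but the names of its count files contain letters that can also stand for a short hairpin RNA, and which virus, if any, these utricles received was not settled.

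NRF2, the protein made from Nfe2l2, is a transcription factor that KEAP1 normally marks for destruction. Oxidants and electrophiles modify KEAP1, NRF2 then accumulates, pairs with a small MAF protein and binds antioxidant response elements in front of genes for glutathione synthesis, thioredoxin recycling, quinone reduction and haem breakdown. Aminoglycosides are known to raise reactive oxygen species in hair cells, and NRF2 target genes are a standard readout of the defence against them. Fos is a subunit of AP-1, whose binding site has letters in common with the antioxidant response element.

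The promoter windows of members are shown first because the element that NRF2 reads can contain the AP-1 letters. RefSeq windows on GRCm38.p6, from 250 bases before to 50 after an annotated start, were found for 7 of the 10 members, in 9 windows. Hmox1, Gclc and Gsr had no entry in the set of windows used here. The windows were searched on both strands for the core of the antioxidant response element, TGACNNNGC, and for the AP-1 letters TGACTCA or TGAGTCA. The first is held by 12.4% and the second by 5.2% of all 32851 windows of this length, and both by 0.947%. The 4 windows below belong to the members with the largest differences (Nqo1 and Prdx1), to a member with little difference (Srxn1), and to a subunit of the glutathione-forming ligase (Gclm). Capitals mark the matches to either set of letters.
Prdx1, chr4:116685349-116685648, plus strand: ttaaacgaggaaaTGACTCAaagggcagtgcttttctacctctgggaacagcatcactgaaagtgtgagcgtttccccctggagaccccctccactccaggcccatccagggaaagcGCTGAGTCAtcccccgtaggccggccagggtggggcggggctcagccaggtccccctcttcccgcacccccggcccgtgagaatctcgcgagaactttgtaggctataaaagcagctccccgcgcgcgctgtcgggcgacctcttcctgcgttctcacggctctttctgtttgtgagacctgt
Srxn1, chr2:152105274-152105573, plus strand: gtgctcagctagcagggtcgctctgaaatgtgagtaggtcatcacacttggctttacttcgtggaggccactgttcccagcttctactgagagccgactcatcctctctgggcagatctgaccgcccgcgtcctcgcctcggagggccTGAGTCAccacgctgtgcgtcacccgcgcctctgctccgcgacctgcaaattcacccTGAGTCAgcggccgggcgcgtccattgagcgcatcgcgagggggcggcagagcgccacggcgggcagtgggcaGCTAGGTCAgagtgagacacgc
Gclm, chr3:122245307-122245606, plus strand: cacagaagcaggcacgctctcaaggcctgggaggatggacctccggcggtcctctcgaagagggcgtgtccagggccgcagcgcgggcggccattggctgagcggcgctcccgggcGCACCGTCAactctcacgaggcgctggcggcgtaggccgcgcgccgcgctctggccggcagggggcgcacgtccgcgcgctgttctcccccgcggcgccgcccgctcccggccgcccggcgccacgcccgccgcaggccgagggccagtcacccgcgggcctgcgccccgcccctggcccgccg
Nqo1, chr8:107403156-107403455, minus strand: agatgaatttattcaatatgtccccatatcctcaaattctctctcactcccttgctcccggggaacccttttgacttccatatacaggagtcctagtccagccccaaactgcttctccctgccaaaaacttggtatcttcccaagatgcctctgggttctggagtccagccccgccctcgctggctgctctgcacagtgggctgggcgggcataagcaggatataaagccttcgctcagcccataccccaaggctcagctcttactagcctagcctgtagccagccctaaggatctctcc
In the Prdx1 window the core began 133 bases before the start and an AP-1 match began 131 bases before it, so that the matches overlap, and a separate AP-1 match began at 237. The Srxn1 window held AP-1 letters 102 and 45 bases before the start and a core beginning 28 bases after it. Gclm had a core 134 bases before its start and no AP-1 letters. The windows not printed held a core 240 bases before the start in Nfe2l2 and 92 bases before it in 1 of the 3 windows of Txnrd1. Nqo1 and Slc7a11 held neither set of letters in these windows, which says nothing about sequence outside them.

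Library totals ran from 27879889 to 34335214 counts, with between 20254 and 21623 genes detected in each. Fos, the overexpressed gene, averaged 154 ± 8.46 CPM (TMM-normalized, SD, n = 4) with the Fos virus against 38.2 ± 3.18 CPM (SD, n = 3) without it, a log2 fold change (log2FC, Gent+Fos OE over Gent) of 2.01 (adjusted p = 0.000142 in edgeR). The library that differed most from the rest was Gent replicate 2. Its deviation from the 7-library mean decreased with gene length across genes, themselves no independent replicates (Spearman's rho -0.496, against -0.221 to 0.325 elsewhere), and mitochondrial genes took 2.86% of it against 1.74% to 1.99% of the others. Genes shorter than the median of 4084 bases had a median log2FC of -0.17, and longer genes one of 0.13, with -0.00 over all tested genes. With each library's trend with length removed, these medians were 0.00 and 0.01, and each member is given below under this correction and without Gent replicate 2 as well.

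Of the 10 antioxidant genes, none was called different between Gent+Fos OE and Gent. A call required that the adjusted p of edgeR's quasi-likelihood test was under 0.01 and that log2FC was beyond 0.25 in either direction, and 0.134% of all tested genes were called higher and 0.28% lower. At an adjusted p under 0.05 there was 1 member, Nqo1, which was lower, against 1.19% of tested genes lower and 0.665% higher. At an unadjusted p under 0.05 there were 2 members lower, Nqo1 and Prdx1, and 0 higher, against 13.4% and 11.1% of tested genes. Without Gent replicate 2 there were 5 lower (Nfe2l2, Hmox1, Nqo1, Gclm and Prdx1) and 0 higher, against 10.2% and 9.99% of the genes tested in that fit. The length correction gave 3 lower (Nqo1, Gclm and Prdx1) and 1 higher (Gclc), against 12.0% and 9.89%. The Gent+Fos OE libraries all lay below the Gent libraries for 3 members, Nqo1, Prdx1 and Nfe2l2, and all above them for 0, where 12.2% and 11.3% of tested genes did so. The median log2FC over the 10 members was -0.14, with 7 values below 0 and 3 above, and it was -0.17 with the length correction and -0.24 without Gent replicate 2.

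**Figure D1:**
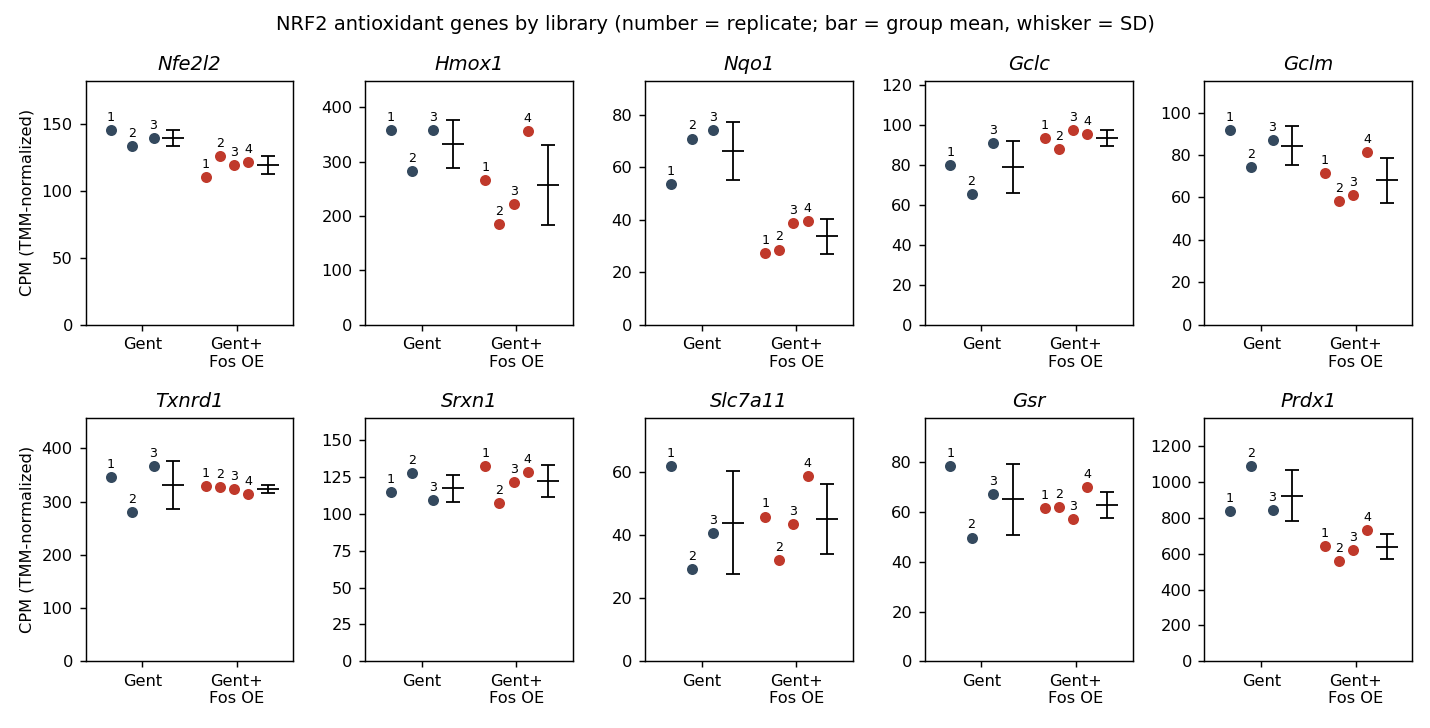
TMM-normalized CPM of the 10 antioxidant genes in each library, with a linear axis from 0, numbers giving the replicate, bars the group mean and whiskers the SD (4 Gent+Fos OE and 3 Gent libraries). The 4 Gent+Fos OE points lie below the 3 Gent points for Nfe2l2, Nqo1 and Prdx1, and the groups overlap for the other 7 genes.

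Levels could be compared between genes only per length, as CPM per kilobase of merged exons. By the median over the 7 libraries, Prdx1 stood at 240 CPM per kilobase, Hmox1 at 161, Txnrd1 at 46.3, Srxn1 at 43.2 and Nfe2l2 at 33.2. Below these came Nqo1 at 25.5, Gclc at 24.2, Gsr at 22.6, Gclm at 11.8 and Slc7a11 at 3.11 CPM per kilobase. The order was clear of the spread between libraries at 3 places. Hmox1 did not go below 106 CPM per kilobase in any library while Txnrd1 did not exceed 51.7, Gsr stayed at or above 18.1 while Gclm reached at most 14.6, and Gclm stayed at or above 9.25 while Slc7a11 reached at most 4.43. The place of Nqo1 differed by group, with a mean of 42.6 CPM per kilobase in Gent, above Srxn1 (41.5) and Nfe2l2 (36.8), and of 21.6 in Gent+Fos OE, below Gclc (24.9) and Gsr (22.8). All other neighbours in the order overlapped, Prdx1 and Hmox1 among them (184 to 357 against 106 to 205 CPM per kilobase).

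The regulator Nfe2l2 (ENSMUSG00000015839) lies on chromosome 2 of mm10 from 75675513 to 75704641, on the minus strand. It was at 110, 126, 119 and 122 CPM in Gent+Fos OE replicates 1 to 4 and at 146, 133 and 140 CPM in Gent replicates 1 to 3. Every Gent+Fos OE library was below every Gent library, in a narrow range. The log2FC was -0.23 (standard error, SE, 0.11, 95% interval -0.48 to 0.02, adjusted p = 0.24 in edgeR), and the two-sided exact permutation test over libraries gave the smallest p that 4 against 3 libraries allow, 0.0286. It was -0.16 with the length correction (adjusted p = 0.356) and -0.26 without Gent replicate 2 (adjusted p = 0.142), past the threshold in none of these fits.

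Among the partners and regulators of NRF2, a list of 12 genes that were all tested, 1 was higher and 1 lower at an unadjusted p under 0.05, below the 11.1% and 13.4% shares of all tested genes, and none was called. The median log2FC of the list was 0.08. Keap1, the adaptor that sends NRF2 for degradation, averaged 60.2 ± 3.52 against 61.8 ± 4.46 CPM (SD, n = 4 and 3), a log2FC of -0.04 (adjusted p = 0.863). Bach1, a repressor that competes for the same elements, had a log2FC of 0.44 (SE 0.23, adjusted p = 0.255). This value depended on single Gent libraries. In Gent replicate 2 Bach1 was at 31.7 CPM against 71.1 and 62.3 CPM in Gent replicates 1 and 3, and log2FC was 0.15 without replicate 2 and 0.66 without replicate 1. Of the small MAF genes, Mafk was higher in every Gent+Fos OE library than in any Gent library (32.3 ± 2.73 against 24.2 ± 1.79 CPM, SD, n = 4 and 3). Its log2FC of 0.42 (SE 0.13) missed the threshold at an adjusted p of 0.114 in edgeR. Mafg (0.21, adjusted p = 0.338) and Maff (-0.09, adjusted p = 0.777) overlapped between the groups. Without Gent replicate 2 these were 0.085 for Mafg and 0.017 for Maff, and Keap1 was at 0.0079, so the signs of Maff and Keap1 turned. The gene lower at an unadjusted p under 0.05 was Rbx1, a ring subunit of the ligase that KEAP1 recruits (log2FC -0.31, adjusted p = 0.196), named here because it completes that count. Without Gent replicate 2, 0 genes of the list were lower and 1 higher at that limit, against 10.2% and 9.99% of tested genes. Of the 12 log2FC values 10 were then above 0, with a median of 0.06.

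Glutathione is made by glutamate-cysteine ligase, whose catalytic subunit is Gclc and whose modifier subunit is Gclm, from cystine that the transporter Slc7a11 brings in, and Gsr reduces it again after use. The 4 genes had log2FC values on both sides of 0, and none passed the threshold. Gclc (ENSMUSG00000032350, chromosome 9, 77754535 to 77794485) was at 93.5, 88.2, 97.6 and 95.5 CPM in Gent+Fos OE and at 79.9, 65.3 and 91.2 CPM in Gent. The Gent+Fos OE libraries were close to each other and 3 of them lay above all Gent libraries. Gclc had a log2FC of 0.25 (SE 0.14, 95% interval -0.05 to 0.55, adjusted p = 0.273 in edgeR, exact permutation p = 0.0571). It was 0.13 without Gent replicate 2 (adjusted p = 0.488) and 0.31 with the length correction (adjusted p = 0.189).

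Gclm (ENSMUSG00000028124, chromosome 3, 122245557 to 122270732) was at 71.4, 58.2, 61.2 and 81.5 CPM in Gent+Fos OE and at 91.9, 74.2 and 86.8 CPM in Gent. Gent+Fos OE replicate 4 was above Gent replicate 2, and the other 3 Gent+Fos OE libraries were below all Gent libraries. Gclm had a log2FC of -0.31 (SE 0.15, 95% interval -0.63 to 0.02, adjusted p = 0.223 in edgeR, exact permutation p = 0.114), with -0.41 under the length correction (adjusted p = 0.113) and -0.40 without Gent replicate 2 (adjusted p = 0.127). Another gene shares 4.71% of the exonic bases of Gclm, and reads from shared bases were not counted.

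Slc7a11 (ENSMUSG00000027737, chromosome 3, 49892526 to 50443614), the cystine transporter, was at 45.8, 31.9, 43.3 and 58.7 CPM in Gent+Fos OE and at 61.6, 29.3 and 40.7 CPM in Gent. The spread within each group was wider than the difference between them. Its log2FC was 0.03 with a wide 95% interval from -0.52 to 0.59 (adjusted p = 0.945 in edgeR). Its sign depended on the processing, with -0.29 under the length correction, -0.19 without Gent replicate 2 and 0.36 without Gent replicate 1. Slc7a11 has the longest exons of the 10 genes (13922 bases).

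Gsr (ENSMUSG00000031584, chromosome 8, 33652523 to 33698163), glutathione reductase, was at 61.8, 62.1, 57.2 and 69.9 CPM in Gent+Fos OE and at 78.3, 49.8 and 67.1 CPM in Gent. All Gent+Fos OE libraries lay inside the range of the Gent libraries. Its log2FC was -0.05 (95% interval -0.40 to 0.30, adjusted p = 0.86 in edgeR), and its sign turned with the length correction (0.083) and without Gent replicate 1 (0.10), while it was -0.22 without Gent replicate 2.

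In the thioredoxin branch, Prdx1 was lower in Gent+Fos OE in every library, and Txnrd1 and Srxn1 had log2FC values near 0 that depended on the fit. Prdx1 (ENSMUSG00000028691, chromosome 4, 116685544 to 116700822) makes peroxiredoxin 1, a cytosolic enzyme that removes hydrogen peroxide. It was at 641, 560, 623 and 731 CPM in Gent+Fos OE and at 838, 1086 and 843 CPM in Gent. The highest Gent+Fos OE library was below the lowest Gent library, and Gent replicate 2 was the highest of all. Prdx1 had a log2FC of -0.53, or 0.693 times the Gent level (SE 0.14, 95% interval -0.85 to -0.21, adjusted p = 0.0879 in edgeR, exact permutation p = 0.0286, the smallest possible). It was -0.40 without Gent replicate 2 (adjusted p = 0.0852) and -0.39 with the length correction (adjusted p = 0.0932), and adjusted p ran from 0.0451 to 0.233 with each library left out in turn. DESeq2 gave Prdx1 a log2FC of -0.52 and an adjusted p of 0.0167, and with Nqo1 this made 2 members lower at an adjusted p under 0.05, against 3.54% of its genes. Processed copies of Prdx1 elsewhere in the genome can take up or exclude some of its reads, and reads mapped to several places were not counted.

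Txnrd1 (ENSMUSG00000020250, chromosome 10, 82833951 to 82897712), thioredoxin reductase, was at 330, 328, 323 and 314 CPM in Gent+Fos OE and at 346, 281 and 366 CPM in Gent. The Gent+Fos OE libraries were within a narrow band that lay inside the Gent range. The log2FC was -0.03 (95% interval -0.31 to 0.25, adjusted p = 0.896 in edgeR). It moved to -0.17 with the length correction (adjusted p = 0.303), to -0.14 without Gent replicate 2 (adjusted p = 0.393) and to 0.047 without Gent replicate 3. Srxn1 (ENSMUSG00000032802, chromosome 2, 152105516 to 152111376), sulfiredoxin, reactivates peroxiredoxins that peroxide has over-oxidized. Srxn1 was at 132, 107, 122 and 128 CPM in Gent+Fos OE and at 114, 127 and 109 CPM in Gent, with a log2FC of 0.06 (95% interval -0.21 to 0.34, adjusted p = 0.775 in edgeR). The groups overlapped, and the log2FC of Srxn1 moved to 0.22 with the length correction (adjusted p = 0.251) and to 0.12 without Gent replicate 2 (adjusted p = 0.539). The Srxn1 and Prdx1 windows shown above were the only member windows searched that held the AP-1 letters, and their log2FC values were 0.06 and -0.53.

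Nqo1 had the largest difference of the 10 genes. It makes NAD(P)H quinone dehydrogenase 1, which reduces quinones by a 2-electron step, and lies on chromosome 8 from 107388225 to 107403206 on the minus strand (ENSMUSG00000003849). It was at 27.3, 28.6, 38.8 and 39.6 CPM in Gent+Fos OE and at 53.5, 70.9 and 74.2 CPM in Gent. All Gent+Fos OE libraries were below all Gent libraries, with Gent replicate 1 the lowest of the Gent group. Nqo1 had a log2FC of -0.98, or 0.507 times the Gent level (SE 0.18, 95% interval -1.37 to -0.59, adjusted p = 0.0229 in edgeR, exact permutation p = 0.0286, the smallest possible). The adjusted p missed the limit of 0.01 for a call.

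The Nqo1 difference did not rest on Gent replicate 2, without which it was -0.93 (adjusted p = 0.0196), and it was -0.72 with the length correction (adjusted p = 0.0273). DESeq2 gave Nqo1 a log2FC of -0.97 and an adjusted p of 8.3e-05 and called it, as it did 1.56% of 20975 genes in that direction. Leaving out each library in turn kept the log2FC between -1.11 and -0.89, with adjusted p from 0.0112 to 0.0878 (without Gent+Fos OE replicate 1) in edgeR. Of 16 alternative fits, 11 gave Nqo1 an adjusted p under 0.05 and 2 called it.

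**Figure D2:**
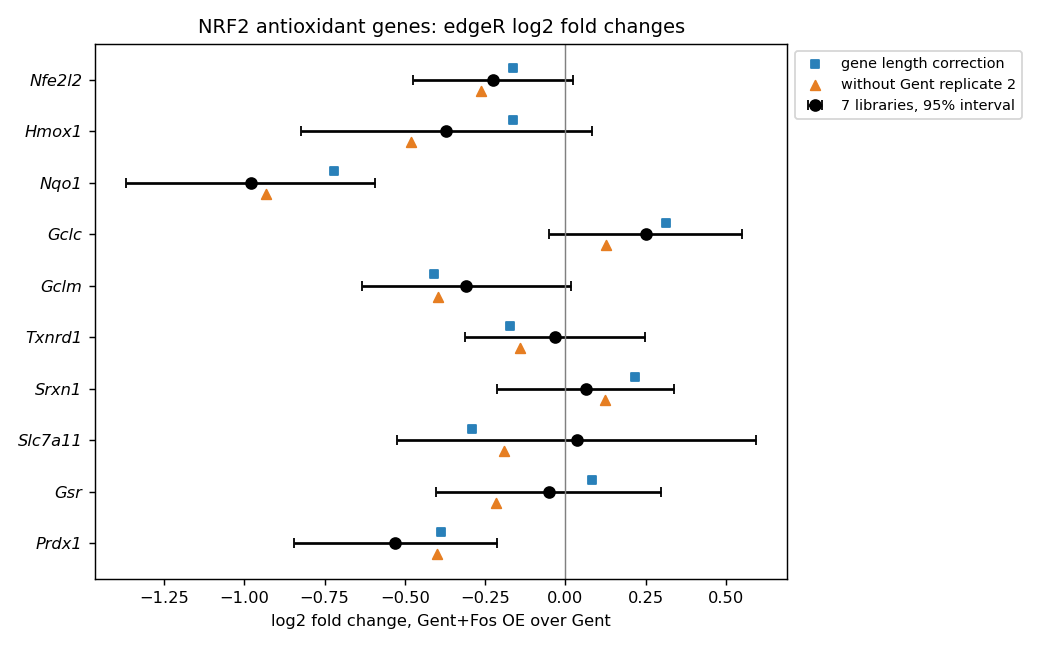
Log2FC of Gent+Fos OE over Gent for the 10 antioxidant genes from edgeR, with the 95% interval of the fit on 7 libraries (black), the value with the gene length correction (blue squares) and the value without Gent replicate 2 (orange triangles). The intervals of Nqo1 (-1.37 to -0.59) and Prdx1 (-0.85 to -0.21) lie below 0, those of the other 8 genes include 0, and Slc7a11 and Gsr change sign between fits.

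Hmox1 (ENSMUSG00000005413, chromosome 8, 75093621 to 75100589) makes haem oxygenase 1, which opens haem into biliverdin, iron and carbon monoxide, and is strongly expressed by macrophages as well as by stressed cells. It was at 267, 186, 221 and 356 CPM in Gent+Fos OE and at 358, 282 and 359 CPM in Gent. Gent+Fos OE replicate 4 lay inside the Gent range, and the other 3 lay below all of them. The log2FC was -0.37 (SE 0.20, 95% interval -0.82 to 0.08, adjusted p = 0.28 in edgeR, exact permutation p = 0.114), and it was -0.16 with the length correction, -0.48 without Gent replicate 2 (adjusted p = 0.209), -0.57 without Gent+Fos OE replicate 4 and -0.25 without Gent+Fos OE replicate 2 (adjusted p = 0.501).

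As a sum, macrophage markers were also lower in Gent+Fos OE. The 14 markers summed to 3185 to 4956 CPM in Gent+Fos OE and to 5243 to 7354 CPM in Gent, with a median log2FC of -0.66. Of the 14, 10 were lower and 0 higher at an unadjusted p under 0.05, against 13.4% and 11.1% of all tested genes. Not all went the same way, with 12 log2FC values below 0 and 2 above. All Gent+Fos OE libraries lay below the Gent libraries for 9 markers and above them for 1, against 12.2% and 11.3% of all tested genes. Adgre1, which encodes the macrophage surface protein F4/80, was at 508, 282, 408 and 622 CPM in Gent+Fos OE and at 825, 682 and 639 CPM in Gent. Adgre1 and Hmox1 ranked the 4 Gent+Fos OE libraries in the same order, but not the 3 Gent libraries, where Gent replicate 2 had the highest macrophage sum (7354 CPM) and the lowest Hmox1 (282 CPM). In these bulk samples, fewer cells of a type and less RNA per cell cannot be told apart, and the part of macrophages in the values of Hmox1, Nqo1 and Prdx1 was not tested.

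The other cell type lists were given beside the members in the same way. The 6 melanocyte markers summed to 45.7 to 50.9 CPM in Gent+Fos OE and to 87.6 to 124 CPM in Gent, with a median log2FC of -1.37 and 2 called lower (the pigment enzymes Tyrp1 and Dct), against 0.28% of all tested genes. Tyrp1 was not called without Gent replicate 2 (adjusted p = 0.0132), but 2 of the 6 were called lower in that fit too, as were 93 of 17525 tested genes. With the length correction 3 of the 6 were called lower, as were 65 of 17155 tested genes. Hair cell markers summed to 1002 to 1224 against 828 to 1051 CPM, with 4 of 11 higher and 0 lower at an unadjusted p under 0.05, against 11.1% and 13.4% of all tested genes. The median length of these markers was 8272 bases, and with the length correction 1 was higher and 1 lower, against 9.89% and 12.0%, and their median log2FC went from 0.09 to 0.01. Without Gent replicate 2 the median of the hair cell markers was 0.19. In that fit 4 were higher and 1 lower, against 9.99% and 10.2%, and 1 was called higher, as were 45 of 17525 tested genes. Supporting cell markers summed to 2461 to 3184 against 1710 to 2222 CPM without overlap, with 4 of 9 higher and 1 lower at that limit, against 11.1% and 13.4%. At an adjusted p under 0.05 in edgeR, 1 was higher and 1 lower, against 0.665% and 1.19%. Otog, a gene of the extracellular membranes over the epithelium, was the 1 called higher and 0 were called lower, against 0.134% and 0.28%. With the length correction Otog was at a log2FC of 0.95 and no longer called (adjusted p = 0.0155), and no supporting cell marker was called. In that fit 4 were higher and 1 lower at an unadjusted p under 0.05, against 9.89% and 12.0%, and the list median went from 0.08 to 0.30. Without Gent replicate 2, 1 supporting cell marker was called higher and 1 lower, as were 45 and 93 of 17525 tested genes. DESeq2 called 2 of them higher and 1 lower, against 1.3% and 1.56% of its genes. Markers of both cell types of the sensory epithelium were detected in all libraries. Mesenchyme markers summed to 6788 to 10224 against 8493 to 12258 CPM, endothelial markers to 125 to 170 against 135 to 198 CPM, and Schwann cell and glial markers to 340 to 504 against 302 to 466 CPM. Erythroid markers were near 0 (at most 1.07 CPM in sum). The part of these cell types in the antioxidant values was not tested.

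**Figure D3:**
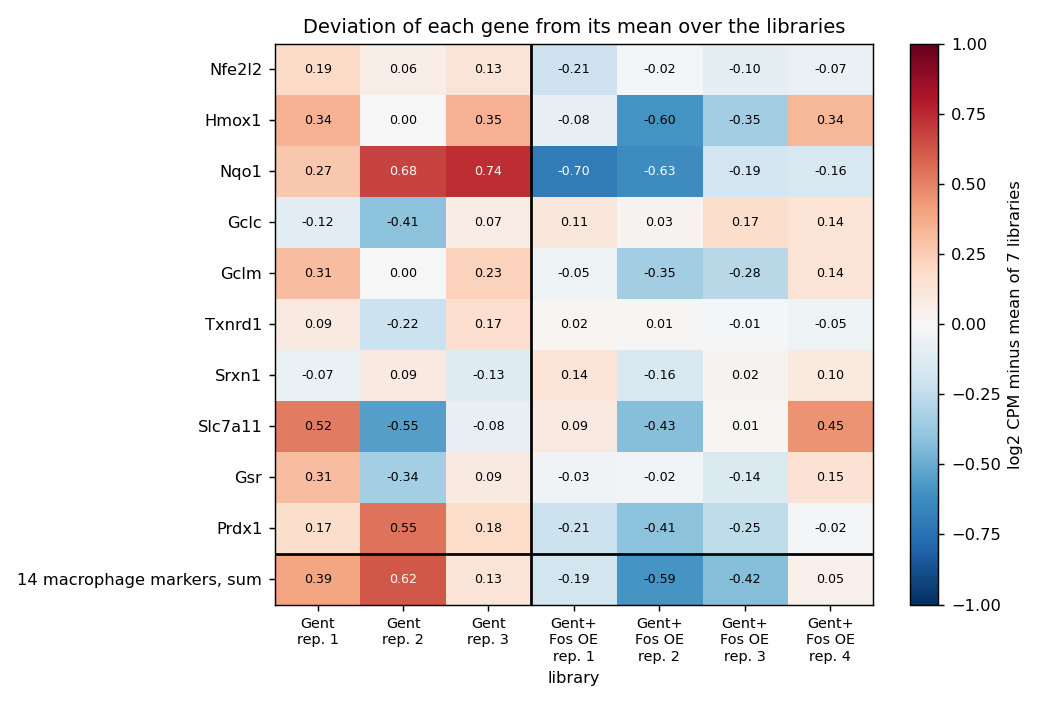
Log2 CPM relative to the 7-library mean for each antioxidant gene (rows) in each library (columns), with the summed 14 macrophage markers in the bottom row; red is above and blue below the mean, and the number is printed in each cell. Nqo1 is above its mean in the 3 Gent libraries (0.27 to 0.74) and below it in the 4 Gent+Fos OE libraries (-0.70 to -0.16), and Hmox1 is lowest in Gent+Fos OE replicate 2 (-0.60), where the macrophage sum is lowest too (-0.59), whereas in Gent replicate 2 the macrophage sum is highest (0.62) and Hmox1 is at 0.00, its lowest Gent value.

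The 10 genes did not share a common order of libraries. Gent replicate 1 was the highest library for 4 members and Gent replicate 3 for 3, whereas Gent+Fos OE replicate 2 and Gent replicate 2 were each the lowest for 4. Gent replicate 2 held the lowest values of Gclc, Txnrd1, Slc7a11 and Gsr and, in contrast, the highest value of Prdx1. The median deviation of the members from their 7-library means was -0.25 (log2) in Gent+Fos OE replicate 2 and 0.12 in Gent+Fos OE replicate 4, against 0.23, 0.00 and 0.15 in Gent replicates 1 to 3.

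The wider NRF2 pathway was read from 7 lists with 101 genes, of which 96 were tested. None of the 96 was called by edgeR in either direction, 3 were lower at an adjusted p under 0.05 (1.19% of all tested genes were), and 42 were lower and 2 higher at an unadjusted p under 0.05, against the 13.4% and 11.1% given above. The median log2FC was -0.34. Many of these genes are short, with a median of 3172.5 bases, and the length correction took the median to -0.19 with 34 lower and 3 higher at an unadjusted p under 0.05, against 12.0% and 9.89% of tested genes in that fit. Without Gent replicate 2 the median was -0.17, with 29 lower and 3 higher, against the 10.2% and 9.99% of that fit. DESeq2 called 10 of the wider genes lower and 0 higher, where it called 1.56% and 1.3% of all its genes.

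By role, the lists for haem and iron, glutathione, thioredoxin, superoxide and NADPH had medians of -0.41 or lower, and those for detoxification and regulators stood at -0.24 and 0.08. The counts that follow are at an unadjusted p under 0.05, where 13.4% of all tested genes were lower and 11.1% higher. Of 9 haem and iron genes, 6 were lower (median log2FC -0.53, and -0.42 with the length correction). Of 27 tested glutathione genes other than the members, 13 were lower and 0 higher (median -0.47, and -0.24 corrected), and their median length of 1679 bases was the shortest of these lists. Of 17 other thioredoxin and peroxiredoxin genes, 9 were lower and 1 higher (median -0.44, and -0.22 corrected). Of 8 genes that supply NADPH, the reducing power for both branches, 6 were lower (median -0.41, and -0.33 corrected). Of 4 superoxide and peroxide enzymes, 2 were lower (median -0.42, and -0.35 corrected), and of 19 tested quinone, carbonyl and drug detoxification genes, 5 were lower (median -0.24, and -0.14 corrected). Without Gent replicate 2, where 10.2% of tested genes were lower and 9.99% higher, all of these medians were nearer to 0. They were -0.37 for haem and iron (5 lower), -0.26 for glutathione (9 lower and 1 higher), -0.19 for thioredoxin (5 lower and 1 higher) and -0.26 for NADPH (5 lower). For superoxide and detoxification they were -0.17 (2 lower) and -0.11 (3 lower).

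**Figure D4:**
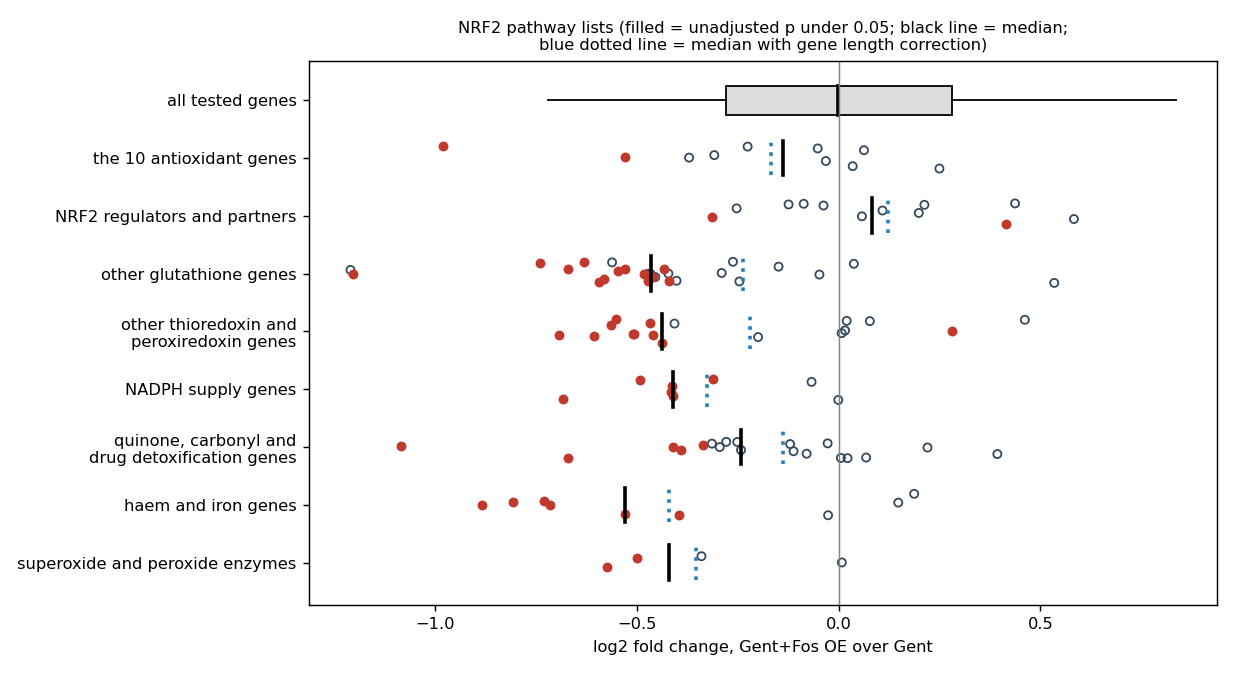
Log2FC of Gent+Fos OE over Gent (edgeR) for each tested gene of the antioxidant members and of the 7 wider NRF2 pathway lists, filled where the unadjusted p is under 0.05; black lines mark list medians, blue dotted lines the medians with the gene length correction, and the grey box and whiskers the 25th to 75th and 5th to 95th percentiles of all tested genes. List medians run from -0.53 for haem and iron genes to 0.08 for NRF2 regulators, and with the correction the medians of the 6 wider lists below 0 lie nearer to 0, while that of the antioxidant members goes from -0.14 to -0.17.

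The wider gene with the smallest p was Gpx2, a glutathione peroxidase of epithelia. Gpx2 was at 117, 174, 158 and 138 CPM in Gent+Fos OE and at 271, 425 and 318 CPM in Gent. All Gent+Fos OE libraries were below all Gent libraries. Gpx2 had a log2FC of -1.20 (SE 0.18, adjusted p = 0.0104 in edgeR), just outside the limit for a call, and it was called with the length correction (-1.07, adjusted p = 0.00432) and without Gent replicate 2 (-1.01, adjusted p = 0.0043).

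G6pdx, the entry enzyme of the pentose phosphate route and a main source of NADPH, averaged 292 ± 16.4 against 470 ± 83.7 CPM (SD, n = 4 and 3), a log2FC of -0.68 (adjusted p = 0.0408). Sod2, the mitochondrial superoxide dismutase, was at 124 ± 10.3 against 185 ± 10.8 CPM (SD, n = 4 and 3), a log2FC of -0.57 (adjusted p = 0.0427). Sod2 has 10008 exonic bases, and with the length correction it was called lower (log2FC -0.85, adjusted p = 0.00873). With each library left out in turn, adjusted p in edgeR ran from 0.0167 to 0.132 for G6pdx and from 0.0148 to 0.14 for Sod2. Their log2FC values then ran from -0.81 to -0.55 and from -0.62 to -0.53. The groups did not overlap for either gene, and other genes share 13.6% of the exonic bases of G6pdx.

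The next 9 wider genes by p had adjusted p from 0.057 to 0.0841 in edgeR, all lower and without overlap between the groups. They were the peroxiredoxins Prdx5 (-0.69) and Prdx6 (-0.55), the mitochondrial thioredoxin Txn2 (-0.56), the glutathione transferases Gstm2 (-0.74) and Gstp1 (-0.67), the ferritin chains Fth1 (-0.81) and Ftl1 (-0.72), biliverdin reductase Blvra (-0.73) and the reductase Akr1c13 (-1.08), all as log2FC values. The length correction took Gstm2 to -0.45, Gstp1 to -0.38 and Ftl1 to -0.42, and Gstm2 was at -0.48 without Gent replicate 2. Fth1, for example, was at 3053 ± 621 CPM in Gent+Fos OE and 5346 ± 1347 CPM in Gent (SD, n = 4 and 3), with Gent replicate 2 at 6899 CPM and Gent replicates 1 and 3 at 4651 and 4487 CPM. Ferritin is abundant in macrophages, whose summed markers were lower in the same libraries, and their part in these values was not tested. Fth1, Ftl1, Gstm2, Gstp1, Prdx6 and Akr1c13 have close paralogs or processed copies and are uncertain to that extent, and other genes share 19.1% of the exonic bases of Prdx5.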

How the data were processed

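RNA sequencing libraries were made from total RNA of P2 utricle explants, 4 Gent+Fos OE and 3 Gent. The authors deposited raw read counts per gene from featureCounts 2.0.6, without normalization. The file headers and the submitters' processing notes name mm10, and the study's methods name mm39, so coordinates are given as in the files, on mm10. Per the file headers, strand was not used and reads with several places or genes were not counted. The methods state 3 replicates per condition and the labels list 4 and 3, and all 7 libraries were used. Symbols were given to 24493 of 32285 genes, and 184 of 185 list genes were matched.

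Differential expression used edgeR 4.0.16 under R 4.3.3 (filterByExpr, TMM, quasi-likelihood F-test without covariates, Benjamini-Hochberg over 17155 genes). Genes were called where the adjusted p was under 0.01 and log2FC beyond 0.25 in either direction. Alternatives were DESeq2 1.42.0, limma-voom (limma 3.58.1), other normalizations and filters, removal of the loess trend with gene length (span 0.3) in each library, a replicate block and leaving out each library. The code was tested on simulated data. The 10 members, the gene lists and the markers were chosen with earlier results of these data known. Named wider genes are Keap1, Bach1, Maff, Mafg and Mafk, called genes and the 12 with the smallest p. Rbx1 and the marker genes Adgre1, Tyrp1, Dct and Otog are outside this rule and were named after their values were seen. Figures were drawn with matplotlib 3.10.9.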

Additional observations from a re-analysis of the deposited data

Results flagged for a closer look

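In 36 groups of 4 Gent+Fos OE libraries (members, named genes and marker sums), 3 had a library far from the other 3, where chance alone gives about 1 in 20. Fos was at 166.98 CPM in Gent+Fos OE replicate 3 and at 148.83 to 151.14 CPM in the other 3. Bach1 was at 68.2 CPM in Gent+Fos OE replicate 2 and at 75.7 to 77.2 CPM in the others. The mesenchyme markers summed to 6788 CPM in Gent+Fos OE replicate 2. None of the 10 antioxidant genes was among the 3.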

How the results depend on the processing

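Over the 16 alternative fits, 147 of 160 member log2 fold changes kept their direction and side of the threshold, 11 changed sign and 2, both of Nqo1, became calls. With DESeq2, 273 genes were called higher and 327 lower, without a filter 63 and 141, and the length correction called 36 higher. With each library left out in turn, 2 (without Gent+Fos OE replicate 3) to 45 (without Gent replicate 2) were called higher and 3 to 93 lower. The number of members called lower was 1 with DESeq2 and 1 without a filter, Nqo1 in both. The number of members lower at an unadjusted p under 0.05 was 4 with upper quartile normalization (14.6% of all genes in that fit) and 2 to 5 with a library left out (5 without Gent replicate 2, 10.2% of all genes, and 4 without Gent+Fos OE replicate 4, 12.5%), and 1 was higher with the length correction and 0 to 1 with a library left out. Slc7a11 had log2 fold changes of -0.29 with the length correction and -0.19 to 0.36 with a library left out, Gsr of 0.083 and -0.22 to 0.10, and Txnrd1 of -0.14 to 0.047. The cause of these changes was not tested.

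The replicate numbers in the labels are not stated to mark shared litters or days, and the deviations of same-numbered libraries correlated at 0.064, -0.038 and 0.032, so they were not treated as pairs. With the number as a replicate block, edgeR called 0 genes higher and 0 lower, with 1697 and 1703 at an unadjusted p under 0.05. With the block 4 members were lower at an unadjusted p under 0.05 (9.93% of all genes), Nqo1 was at -1.07 (adjusted p = 0.0591) and Slc7a11 at -0.072. With the block and the length correction 4 members were lower and 1 higher (10.1% and 9.65% of all genes), Slc7a11 was at -0.48 and Gsr at 0.085. Each member had at least 839 counts in every library, so counting error was small beside the spread between pools.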

Other observations

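The ratio of Gclm to Gclc, the modifier and catalytic subunits of glutamate-cysteine ligase, was looked at after their values were seen. Within a library this ratio does not depend on the scaling between libraries. As CPM of Gclm over CPM of Gclc it was 0.764, 0.66, 0.627 and 0.854 in Gent+Fos OE replicates 1 to 4 and 1.15, 1.14 and 0.952 in Gent replicates 1 to 3. The groups did not overlap, and no test was made because the ratio was picked for this pattern. Gclm has 6291 and Gclc 3766 exonic bases, the part of the trend with gene length in the ratio was not tested, and under the length correction the log2 fold changes were -0.41 for Gclm and 0.31 for Gclc.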
